A study of Mus musculus with 2 samples.

Results

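Mucins, mesothelin and the factors that build goblet cells were described in cultured fetal mouse lung epithelium on 2 Affymetrix arrays. The 10 genes were Muc1, Muc4, Muc5ac, Muc5b, Muc16, Muc20, Msln, Tff2, Agr2 and Spdef, out of 18193 genes named on the array. They were read through every probe set whose platform annotation names exactly 1 of them, which gave 14 of the 34945 probe sets with a single gene. The epithelium came from ICR mouse embryos of embryonic day 11. It was grown in Matrigel, a gel of basement membrane proteins, for 4 days with FGF10 and CHIR99021, then broken up and returned to fresh gel with FGF10 for a second culture of 2 days. During those 2 days CHIR99021, which blocks glycogen synthase kinase 3 and so keeps beta-catenin from being degraded, was present in 1 culture and absent from the other. Both cultures had therefore been exposed to the inhibitor, and the study compared keeping it with withdrawing it. With 1 array for each condition, each value is a single measurement, no spread between cultures can be given and no test was made.

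Mucins are long glycoproteins whose serine and threonine residues carry dense O-linked sugar chains. Some span the membrane and coat the apical surface of epithelia, and others are secreted and cross-link into the mucus gel that goblet cells release. In the mouse airway the transcription factor Spdef drives goblet cell differentiation, and Agr2, a protein disulfide isomerase of the endoplasmic reticulum, is needed for mucin production in mouse intestine. Mesothelin is a protein tethered to the cell surface by a lipid anchor and best known from the mesothelium, the lining of the lung surface and body cavities; human mesothelin binds MUC16.

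Signals are MAS5 values on a linear scale. Background was taken from 80 probe sets for olfactory and vomeronasal receptors, whose 95th percentile, called the floor, was a signal of 12.7 with CHIR99021 and 19.2 without it. A gene was counted as measured when it exceeded the floor on either array, and as lower or higher when the signals, raised to the floor where they were below it, differed by 2-fold or more. Of all genes 12917 were measured, and the median log2 ratio, CHIR99021 present over absent, was -0.42. The ratio of 3' to 5' signal was 3.18 with and 1.29 without CHIR99021 for beta-actin and 1.62 with and 0.737 without for Gapdh. The array with CHIR99021 thus had the larger 3' bias, whose part in the mucin values was not tested. Axin2, a feedback target of beta-catenin, had a signal of 267 with CHIR99021 and 58.2 without it, and Sox2, a conducting airway transcription factor, had 9.89 with CHIR99021, below the floor, and 285 without. Lgr5, a Wnt pathway receptor, had 416 with and 12 without, the last below the floor, and Sox9, a factor of the distal tips, had 771 with and 70.1 without.

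Mesothelin and the membrane mucins Muc1 and Muc4 were at least 2-fold lower with CHIR99021. Muc5ac, Muc5b, Muc20 and Tff2 were measured near the floor and lay within 2-fold. Muc16, Agr2 and Spdef were below the floor on both arrays. Thus 3 of the 7 measured genes were lower and 0 were higher, where 18.4% of all measured genes were at least 2-fold lower and 1.90% at least 2-fold higher. The median log2 ratio of the 7 was -0.98, and 6 of them lay below the median of all measured genes, -0.42. The 2 floors themselves have a log2 ratio of -0.59, so a gene at both floors lies below that median by construction. Tff2, at -0.60, is counted among the 6 in this way, and the dim members are affected by it. A further 3 of the 10 genes were not measured, against 29.0% of all genes on the array.

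**Figure D1:**
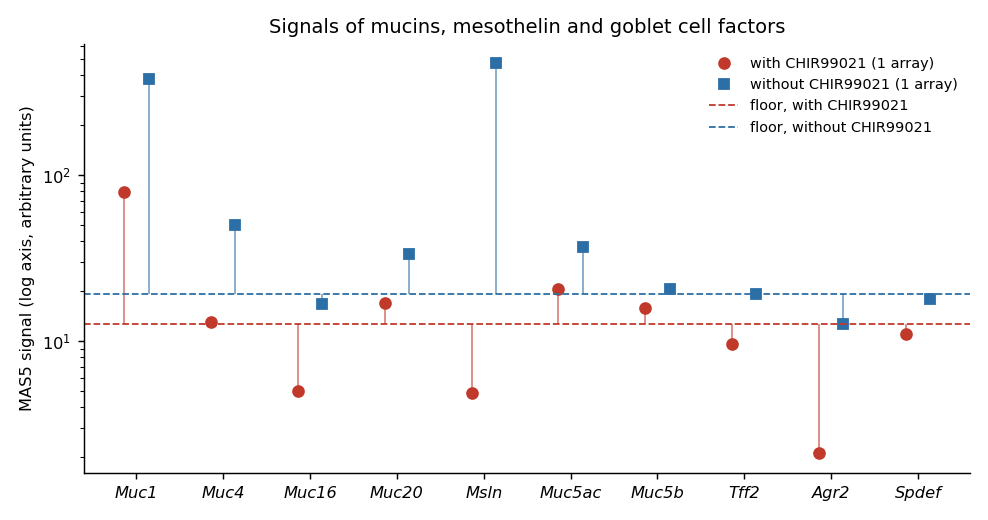
MAS5 signal (log axis, arbitrary units) of the 10 genes, each read by its brightest probe set, on the array with CHIR99021 (circles) and the array without it (squares); dashed lines are the floors of 12.7 and 19.2, and thin lines join each point to the floor of its array. Msln at 471 and Muc1 at 380 stand clear of the floor without CHIR99021, and the other genes lie near or below it on both arrays.

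Among the membrane-bound proteins, Msln differed most. Its only probe set had a signal of 4.84 with CHIR99021, against 471 without it. The first value was below the floor and brighter than 58.8% of the receptor probe sets, and the second was 24.6 times the floor. Msln was therefore at least 37.0-fold lower with CHIR99021, a log2 ratio of -5.21 or below, and 11 of the 12917 measured genes, Msln included, had a log2 ratio as low. Since the signal with CHIR99021 is below the floor, this and each value of Msln given for another scaling is a bound set by the floor.

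Muc1, the membrane mucin found on the apical surface of most simple epithelia, had a signal of 79.0 with CHIR99021 and 380 without it. Both signals were brighter than all 80 receptor probe sets. The log2 ratio was -2.27, a 4.82-fold lower signal with CHIR99021, and 294 measured genes, 2.28% of the total, had a ratio as low. In human cells the cytoplasmic tail of MUC1 binds beta-catenin and is phosphorylated by glycogen synthase kinase 3. These arrays measure the transcript and carry no information on the protein.

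Muc4, a membrane mucin whose rat homologue binds the receptor ErbB2, had a signal of 13.1 with CHIR99021, just above the floor, and 49.9 without it. The log2 ratio was -1.93, a 3.8-fold lower signal with CHIR99021. This value rests on 1 of 3 probe sets, of the suffix _x_at, which marks probe sets with some probes that also match other transcripts. Without that probe set Muc4 was not measured, since the other 2 were below the floor on both arrays. Of these, the first had a signal of 0.330 with CHIR99021 and 7.72 without it, and the second, in the opposite direction, 4.03 with and 0.542 without.

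Muc20, a membrane mucin whose human form binds the receptor MET, had a signal of 17.0 with CHIR99021 and 33.5 without it. Its log2 ratio of -0.98 was just short of the 2-fold threshold. Its second probe set was below the floor on both arrays, at 8.87 with CHIR99021 and 13 without. In the RefSeq annotation Muc20 and Muc4 are neighbours on opposite strands whose ends overlap. Muc16, the mucin of the ocular surface, airway and mesothelium, had signals of 5.0 with CHIR99021 and 16.8 without it, both below the floor, so no ratio is given.

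RefSeq promoter windows (build GRCm38.p6, from 250 bases before the annotated start to 50 after it) were at hand for 6 of the 10 genes, namely Muc1, Muc4, Muc16, Muc20, Agr2 and Spdef. Those of the 3 measured genes among them are shown on the gene's own strand, since Muc1 and Muc4 were both lower with CHIR99021 and Muc20 lay next to the threshold. Capitals mark matches to TATAAA, the core of the TATA box, or to TGTTTAC, a core of forkhead factor sites, on either strand. Muc1 lies on the plus strand at chr3:89228806-89229105, Muc4 on the plus strand at chr16:32735636-32735935 and Muc20 on the minus strand at chr16:32797386-32797685.
Muc1: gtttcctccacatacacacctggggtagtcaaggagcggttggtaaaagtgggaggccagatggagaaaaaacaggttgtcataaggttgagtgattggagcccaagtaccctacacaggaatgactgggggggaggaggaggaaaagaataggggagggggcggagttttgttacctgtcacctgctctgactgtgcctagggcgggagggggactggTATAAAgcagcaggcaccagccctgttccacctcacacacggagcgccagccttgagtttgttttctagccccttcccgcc
Muc4: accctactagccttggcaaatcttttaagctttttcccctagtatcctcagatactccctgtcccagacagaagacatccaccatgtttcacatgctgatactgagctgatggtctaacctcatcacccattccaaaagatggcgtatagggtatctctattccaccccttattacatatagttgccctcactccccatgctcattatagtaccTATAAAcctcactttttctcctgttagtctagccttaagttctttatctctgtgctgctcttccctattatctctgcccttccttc
Muc20: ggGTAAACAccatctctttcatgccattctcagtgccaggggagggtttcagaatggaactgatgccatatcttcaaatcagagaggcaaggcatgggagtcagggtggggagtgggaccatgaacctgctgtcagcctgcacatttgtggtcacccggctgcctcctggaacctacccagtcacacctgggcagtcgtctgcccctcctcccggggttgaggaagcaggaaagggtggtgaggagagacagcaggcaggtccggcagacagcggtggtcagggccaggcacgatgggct

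Both Muc1 and Muc4 carried TATAAA in the sense direction, beginning 31 and 36 bases before the start. It was in 2 of the 6 windows, and 13.6% of all 32851 RefSeq promoter windows of the same length held it on either strand. Muc20 carried TGTTTAC in the antisense direction, beginning 248 bases before the start, a motif that 3.65% of all windows held. The sequences CTTTGAA and CTTTGAT, forms of the site bound by the TCF and LEF partners of beta-catenin, were searched on both strands, and 0 of the 6 windows held either, where 5.14% and 3.73% of all windows did. The share of G and C was 55.7% in the Muc1 window, 43.7% in that of Muc4 and 59.3% in that of Muc20.

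The secreted gel-forming mucins were close to background in both cultures. Muc5ac, the mucin that mouse airways make when goblet cells are induced, had a signal of 20.7 with CHIR99021 and 36.9 without it, 1.63 and 1.93 times the floor of its array. Its log2 ratio was -0.83. Muc5b, the main secreted mucin of healthy mouse airways, had 15.7 with CHIR99021 and 20.7 without it, 1.24 and 1.08 times the floor. Its log2 ratio was -0.39 on the authors' scale but 0.08 after median centring, 0.19 after loess and 0.29 after quantile normalization, so it has no settled direction. Each of these mucins was read by 1 probe set.

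The goblet cell factors gave little signal above background. Tff2, a trefoil peptide secreted with mucus and known best from the stomach, had a signal of 9.63 with CHIR99021, below the floor, and 19.2 without it, equal to the floor within rounding. Its log2 ratio of -0.60 after raising is close to that of the 2 floors themselves, -0.59. Spdef had a signal of 11.0 with CHIR99021 and 18.0 without it, 0.868 and 0.940 times the floor. Agr2 had 2.10 with CHIR99021 and 12.7 without it by its brighter probe set, and 3.40 with and 3.59 without by the other. Spdef and Agr2 were thus not detectable above background in either culture, which does not show that their transcripts were absent.

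**Figure D2:**
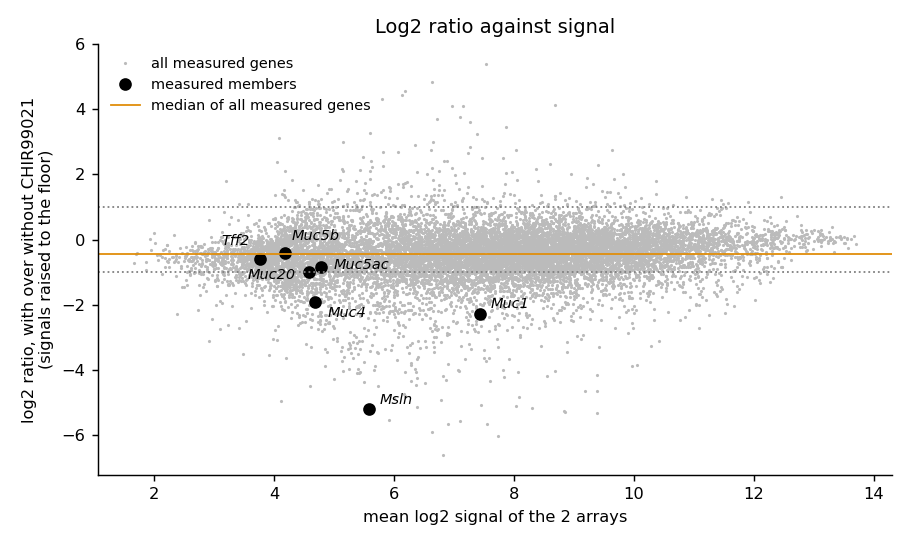
Log2 ratio of the signal with CHIR99021 over that without it, signals raised to the floor (vertical axis), against the mean log2 signal before that step (horizontal axis), for the 12917 measured genes (grey) and the 7 measured members (black). Dotted lines mark 2-fold and the solid line the median of all measured genes, -0.42. Msln, Muc1 and Muc4 lie below the lower dotted line, and the other 4 lie between the dotted lines at low mean signal.

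Genes around mucin production were taken from 6 lists of 103 genes in all, some in 2 lists. Of these 96 had a probe set and 69 were measured, where 71.0% of all genes on the array were. Of the 69, 23 were at least 2-fold lower with CHIR99021 and 0 higher, 33.3% against the 18.4% of all measured genes. Their median log2 ratio was -0.67. The lists differed among themselves, from 4 of 19 genes lower for the enzymes of mucin-type O-glycosylation to 10 of 18 for the genes of mucin granule exocytosis.

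Of the 9 other mucins and mucin-like genes with a probe set, 3 were measured, where 71.0% of all genes on the array were. Ovgp1, the oviduct glycoprotein, had a signal of 45.0 with CHIR99021 and 93.3 without it. Its log2 ratio of -1.05 passed 2-fold on the authors' scale and under none of the other 4 scalings. Muc3, a membrane mucin of the intestine, had 1.87 with CHIR99021, below the floor, and 20.2 without, just above it. Cd164, a sialomucin of many cell types, had 3230 with and 3721 without CHIR99021. The other 6, among them the gel-forming intestinal mucin Muc2, were below the floor on both arrays.

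In the list of goblet and secretory cell genes, 4 of 15 measured genes were lower with CHIR99021 and 0 were higher, a share of 26.7% lower against 18.4% of all measured genes. The other scalings gave 4 lower as well, where between 6.43% and 13.7% of all measured genes were lower. They gave 1 higher after median centring and loess and 2 after quantile normalization, where between 5.91% and 7.38% of all measured genes were higher. Lypd2, a small lipid-anchored surface protein, had a signal of 9.81 with CHIR99021 and 126 without it, at least 9.89-fold lower. Gcnt3, the enzyme that makes branched mucin sugar cores, had 4.56 with and 118 without, at least 9.29-fold lower, and its further measured probe set had a log2 ratio of -1.32. Galnt12, an enzyme that starts mucin sugar chains, had 28.2 with and 131 without, a log2 ratio of -2.21. Creb3l1, a transcription factor of secretory cells, had 22.0 with and 86.3 without, a log2 ratio of -1.97. The airway factors Foxa1 and Foxa2, chosen after their values were seen, were bright and within 2-fold, at 1897 and 1820 with CHIR99021 and 2686 and 2549 without it.

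Among the enzymes of mucin-type O-glycosylation 4 of 19 measured genes were lower and 0 higher. On the authors' scale this share of 21.1% was near the 18.4% of all genes. Under the other scalings 4 were lower too, where between 6.43% and 13.7% of all measured genes were. After median centring 1 was higher, and after loess and quantile normalization 2, where between 5.91% and 7.38% of all measured genes were. Besides Gcnt3 and Galnt12, which are in this list too, the lower genes were Galnt5 and Galnt18, further members of the family that starts these chains. Galnt5 had a signal of 4.46 with CHIR99021 and 186 without it, at least 14.6-fold lower. Galnt18 had 80.5 with and 294 without, a log2 ratio of -1.87. C1galt1, which makes the common core of the chains, and its chaperone C1galt1c1, both chosen after their values were seen, were within 2-fold, at 624 and 1320 with CHIR99021 and 709 and 1674 without.

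Of 18 measured genes for the exocytosis of secretory granules 10 were lower and 0 higher with CHIR99021. Among all measured genes 18.4% were lower and 1.90% higher. The median log2 ratio of the 18 was -1.26. Rab27a, a GTPase that docks secretory granules, had a signal of 8.99 with CHIR99021 and 135 without it, at least 10.6-fold lower, but its 2 further measured probe sets had log2 ratios of -1.27 and 0.12. Sytl2, a partner of Rab27 proteins, had 16.3 with and 153 without, a log2 ratio of -3.22. Rab3d, a GTPase of secretory granules, had 69.8 with and 442 without, a log2 ratio of -2.66, and its 3 further probe sets lay between -2.95 and -0.99. Syt7, a calcium sensor of exocytosis, had 21.8 with and 120 without, a log2 ratio of -2.46, with further probe sets between -1.62 and -0.28. Marcks, a membrane-binding substrate of protein kinase C, was chosen after its value was seen because it had the highest ratio of the list, with signals of 3005 with CHIR99021 and 1599 without it. Under the other 4 scalings between 6 and 10 genes of this list were lower and 1 was higher. Of all measured genes between 6.43% and 13.7% were then lower and between 2.74% and 7.38% higher.

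Of 6 measured genes of interleukin-13 and interleukin-4 reception, the signals that induce goblet cells in mouse airways, 3 were lower and 0 higher with CHIR99021, where 18.4% of all measured genes were lower. Il4ra, the shared receptor chain, had 36.8 with CHIR99021 and 119 without it, a log2 ratio of -1.69, while its 2 further probe sets lay at -0.71 and -0.69. Stat6, the transcription factor of the pathway, had 102 with and 221 without, a log2 ratio of -1.11, and -2.83 by its second probe set. Tyk2, a kinase of the pathway, had 73.3 with and 163 without, a log2 ratio of -1.15, and -0.87 by its second probe set. Il13ra2, a decoy receptor, had 10.7 with, below the floor, and 22.7 without. Under each of the other 4 scalings 1 of the 6 was lower, where between 6.43% and 13.7% of all measured genes were.

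Of 10 measured binding partners and proteases of membrane mucins 3 were lower and 0 higher, beside the 18.4% of all measured genes that were lower. Lgals3, galectin-3, a lectin that binds the sugars of MUC1 in human cells, had a signal of 116 with CHIR99021 and 2912 without it, a 25.0-fold lower signal and a log2 ratio of -4.65. Mmp14, a membrane-bound protease, had 234 with and 620 without, a log2 ratio of -1.40, with its further probe sets at -1.95 and -1.93. Met, the receptor of hepatocyte growth factor, had 416 with and 908 without, a log2 ratio of -1.13, and -1.92 by its second probe set. Adam17, a sheddase, had 484 with and 939 without, a log2 ratio of -0.96, and between -4.26 and -2.56 by 2 further probe sets. Lgals3 alone of the 10 was lower under median centring, loess and quantile normalization, where between 6.43% and 7.44% of all measured genes were.

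**Figure D3:**
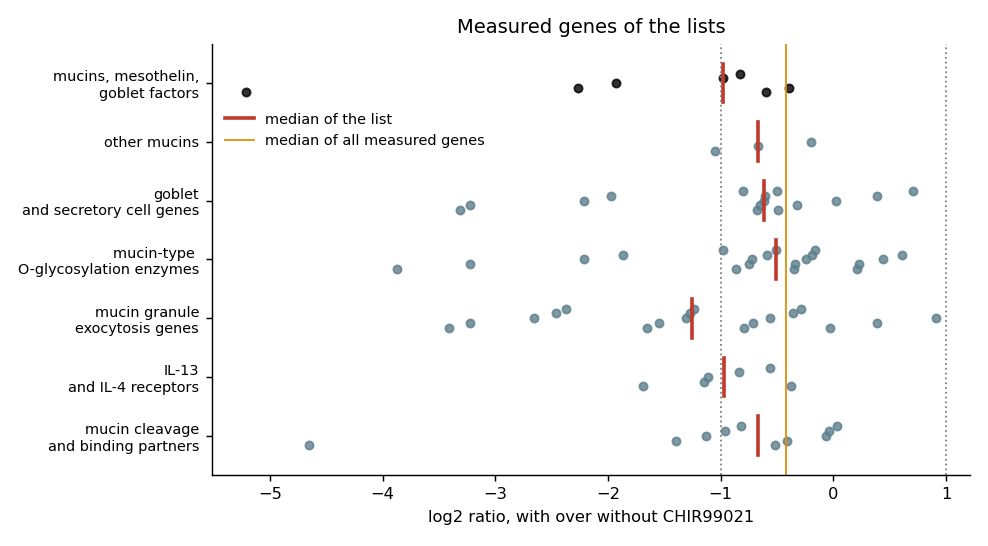
Log2 ratio of the signal with CHIR99021 over that without it for each measured gene (points) of the 10-gene set, top, and of the 6 surrounding lists. Thick bars are list medians, from -1.26 for exocytosis genes to -0.51 for O-glycosylation enzymes, the long vertical line is the median of all measured genes, -0.42, and dotted lines mark 2-fold.

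Since Msln and Muc16 also mark the mesothelium, markers of that and other tissues were read on the same arrays. All 7 epithelial markers were measured, with a summed signal of 15444 with CHIR99021 and 27647 without it. On the authors' scale 3 of the 7 were at least 2-fold lower, where 18.4% of all measured genes were. After median centring 1 of the 7 was lower, where 7.44% of all measured genes were. Under each remaining scaling 3 were lower, where between 6.43% and 13.7% of all measured genes were. The lower ones on the authors' scale were Krt8 (3151 with and 7715 without), Krt18 (2834 with and 6738 without) and Nkx2-1, the lung identity factor, which had 5.84 with CHIR99021, below the floor, and 52.0 without. The others were within 2-fold: Cdh1 had 3574 with and 6414 without, Cldn7 had 1700 with and 2495 without, Epcam had 3743 with and 3846 without, and Cldn6 had 437 with and 387 without. The part of this epithelial difference in the mucin values was not tested. The 10 mesothelial markers summed to 67.0 with CHIR99021 and 138 without it. Of all genes on the array 29.0% were below the floor on both arrays. In this list Wt1, Upk3b, Bnc1, Rspo1 and Pkhd1l1, among them the defining markers Wt1 and Upk3b, were below it on both. Of the other 5, 2 were at least 2-fold lower with CHIR99021, the same direction as Msln, where 18.4% of all measured genes were lower. These were Calb2, with 4.71 with CHIR99021 and 35.6 without it, and Aldh1a2, with 1.38 with and 26.9 without. Calb2 and Aldh1a2 were below the floor with CHIR99021 and 1.86 and 1.41 times the floor without it. The count was 1 after median centring and on the hybridization controls, and 0 after loess and quantile normalization. Under these scalings between 6.43% and 13.7% of all measured genes were lower. Upk1b had 17.6 with and 25.3 without. Gpm6a had 7.40 with and 21.0 without, and Lrrn4 had 14.8 with and 6.36 without. The part of these mesothelial differences in the Msln value was not tested.

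Markers of club cells, the secretory cells of the airway, differed in the same direction as Msln, Muc1 and Muc4. All 5 were above the floor without CHIR99021 and 1 of them with it, and their summed signals were 95 with CHIR99021 and 3008 without it. On the authors' scale 5 were at least 2-fold lower, where 18.4% of all measured genes were. The count was 4 on the hybridization controls and 3 under the other scalings. Of all measured genes between 6.43% and 13.7% were then lower. Without CHIR99021 most of the sum came from Scgb3a2 at 1247, Aldh1a1 at 1107 and Cyp2f2 at 591. Scgb1a1 and Scgb3a1 were 1.84 and 1.46 times the floor there. These 5 were named after their values were seen. Markers of gut and stomach epithelium, where Muc2 and the trefoil peptides are abundant, summed to 188 with CHIR99021 and 1272 without it, and Gkn2, gastrokine 2, gave most of that difference, with 30.0 with and 1019 without. Cdx1, Cdh17, Gkn1, Pgc and Muc2 of that list were below the floor on both arrays, Cdx2 had 1.54 with and 24.4 without, Vil1 had 14.5 with and 5.94 without, and Tff1 had 125 with and 200 without. In a bulk sample fewer cells of a type and less RNA per cell cannot be told apart, and the part of the club cell difference in the mucin values was not tested. Of all genes on the array 71.0% were measured. Of the remaining lists, 4 of 9 mesenchymal, 2 of 5 endothelial, 3 of 5 haematopoietic and 3 of 5 ciliated cell markers were measured. Their sums were 370 with and 430 without CHIR99021 for mesenchyme, 59.8 with and 97.0 without for endothelium, and 108 with and 129 without for haematopoietic cells. The ciliated cell sums of 2963 with and 3876 without come almost wholly from the tubulin Tubb4b, while Foxj1, the defining factor, was below the floor on both arrays; both were named after their values were seen.

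**Figure D4:**
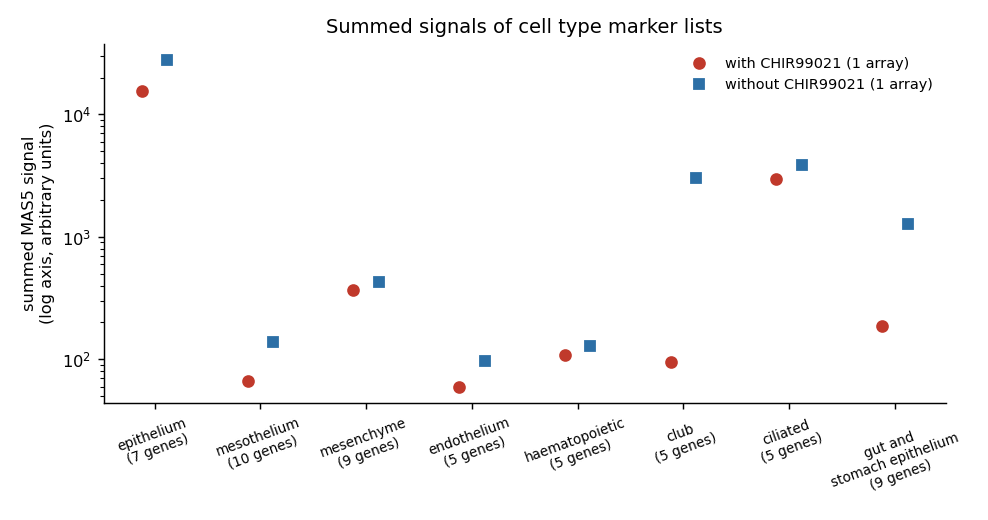
Summed MAS5 signal (log axis, arbitrary units) of each cell type marker list on the array with CHIR99021 (circles) and the array without it (squares), with the number of genes on the array. The widest gap is that of the club cell list, 95 with and 3008 without, and the mesothelial sums of 67.0 and 138 are spread over 10 genes.

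The scaling of the arrays sets where 0 lies for bright and dim genes alike. The median log2 ratio of all measured genes was 0.05 after median centring, 0.12 after quantile normalization, 0.04 after loess and -0.26 when scaled on the 9 bacterial hybridization controls. Under each of these scalings Msln, Muc1 and Muc4 were at least 2-fold lower and the other 4 measured members within 2-fold. The share of all measured genes that were at least 2-fold lower was then 7.44%, 6.43%, 7.29% and 13.7%, and the share at least 2-fold higher 5.91%, 7.38%, 6.03% and 2.74%, in the same order. Relative to the median gene, Muc1 lay between -1.84 and -1.79 and Muc4 between -1.50 and -1.36 on the log2 scale.

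**Figure D5:**
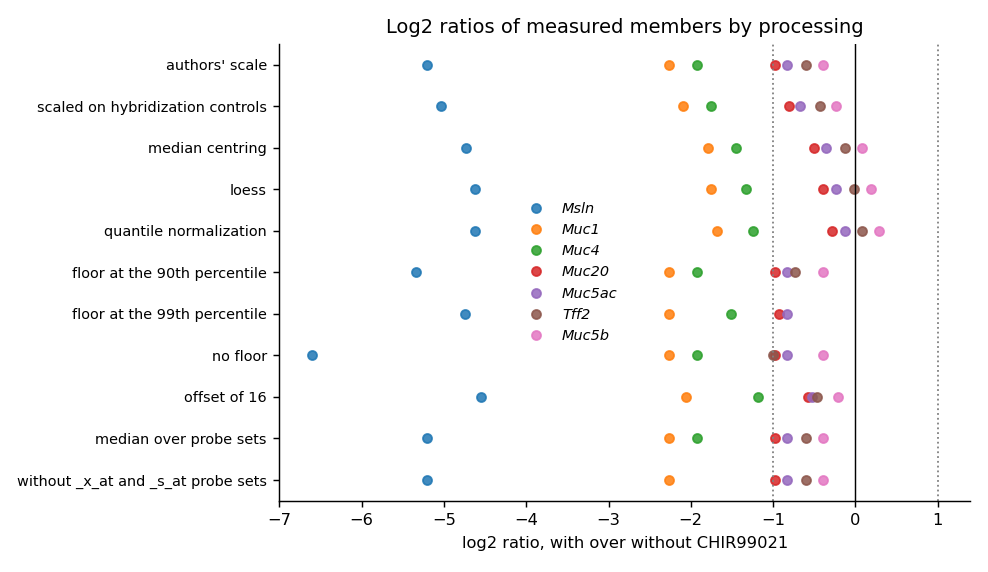
Log2 ratio of the signal with CHIR99021 over that without it (horizontal axis) of the 7 measured members under the authors' scale and 10 other ways of processing (rows). Dotted lines mark 2-fold. Msln, a bound set by the floor where there is one, lies between -6.61 and -4.55 and Muc1 between -2.27 and -1.68, while Muc5b and Tff2 lie on both sides of 0, and a missing point means that the gene was not measured in that row.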

How the data were processed

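The authors deposited MAS5 signal intensities, 1 linear value per probe set and array, per the submitters' processing notes; version and scaling target are not given in the sources used here. From 100 ng of total RNA, cRNA was labelled, per the labels' protocols, with a 3' in vitro transcription kit. Of 45101 probe sets, 64 were controls and 932 named several genes; neither these nor unnamed ones gave gene values. Symbols came from the platform annotation, and 34741 probe sets were matched by Entrez identifier to RefSeq (GRCm38.p6), with 0 symbols changed.

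A gene was read by its brightest single-gene probe set by mean log2 signal. Floor, 2-fold threshold and ratio are as in the results. In the 5335 genes that had at least 2 probe sets exceeding both floors, log2 ratios within a gene had an SD of 0.557, a spread between probes, not cultures. With 1 array per condition no test was possible, and the number of arrays limits the precision. Genes were named by rule: all members, 4 response genes, the 4 largest differences of each list, and the epithelial, mesothelial and gut markers; others, apart from the array controls, are marked. Members and lists were chosen with earlier results of these data known. The motif TATAAA was added after the promoters were seen. Python 3.11.15, numpy 2.4.6, pandas 2.3.3, statsmodels 0.14.6 (loess, span 0.4) and matplotlib 3.10.9 were used. The procedure was tested on simulated data, with changes set only in bright genes of a single probe set above both floors. That test does not cover genes as dim as the members or values raised to the floor.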

Additional observations from a re-analysis of the deposited data

How the results depend on the processing

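The number of members at least 2-fold lower with CHIR99021 was 3 on the authors' scale, 5 without a floor (Msln, Muc1, Muc4, Muc16 and Agr2, the last 2 from signals within background), where 25.3% of all genes were lower, and 6 at a 1.5-fold threshold. At 1.5-fold the call of Tff2 follows from the floors, which themselves differ 1.51-fold. The number was 2 without probe sets of suffix _x_at or _s_at, where Muc4 was no longer measured, and 3 under each other alternative, including a 3-fold threshold. Of all measured genes 19.4% were lower without those probe sets, 20.2% by the median over probe sets and 13.9% with 16 added to every signal. With the floor at the 90th and 99th percentile 18.3% and 17.7% were lower. The number higher was 0 under all 12 alternatives. The median log2 ratio of the measured members was -0.98, with -0.28 after quantile normalization, -0.39 after loess, -1.37 without a floor and -1.51 with the floor at the 99th percentile. The share of all genes lower was 38.7% at 1.5-fold and 6.29% at 3-fold, and the share higher 5.05% and 0.627%, and 6.67% without a floor. Members measured numbered 9 with the floor at the 90th percentile, 5 at the 99th and 10 without a floor. The signs of Msln, Muc1, Muc4, Muc20 and Muc5ac were negative throughout; those of Muc5b and Tff2 were not. No paired analysis was possible because each condition has 1 array. Signal over background limits Muc5ac, Muc5b, Muc20, Tff2, Muc16, Agr2 and Spdef, and 1 array per condition limits every value.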

Other observations

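Of the 69 measured genes in the lists around mucin production, 5 were above the floor with CHIR99021 and not without it, and they were named after their values were seen. Of the 12917 measured genes 11356 were above the floor on both arrays. How many of the rest were above it only with CHIR99021 was not counted, so whether 5 of 69 is unusual was not judged. Bhlha15, a transcription factor of secretory cells, had a signal of 31.3 with CHIR99021 and 11.3 without it. Bpifb1, a secreted airway protein, had 25.1 with and 5.50 without. Galnt6 and Galnt16, enzymes that start mucin sugar chains, had 26.0 and 22.1 with CHIR99021 and 18.2 and 13.4 without it. The trefoil peptide Tff3 had 19.4 with and 6.01 without. The floor without CHIR99021 was 1.51 times the floor with it, and none of the 5 reached 2-fold once dim signals were raised to the floor. All 5 signals with CHIR99021 were less than 3 times the floor of that array.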
